A study of Mus musculus with 5 samples.

Results

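The genes described here encode the nuclear-made subunits of the mitochondrial respiratory chain and ATP synthase. They were found by gene symbol among probe sets with 1 symbol in the array annotation: the Nduf subunit families, Sdha to Sdhd, the Uqcr genes and Cyc1, the Cox4 to Cox8 families without Cox8b, and the Atp5 genes. A total of 85 genes matched, of 19505 genes with a named probe set, and each had a single probe set. Complex I held 36 of them, complex II 4, complex III 9, complex IV 19 and complex V 17. Ndufa4 and its relative Ndufa4l2 were placed in complex IV, where the Ndufa4 protein is now known to sit. The respiratory subunits made from mitochondrial DNA were not analysed here.

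RNA came from 3T3-L1 cells, a mouse preadipocyte line, which were differentiated into adipocytes in all 5 samples. Per the labels' protocols, the cells spent 4 days in basal medium, 4 days with insulin (5 µg/mL), dexamethasone (1 µM) and IBMX (0.5 mM), 2 days with insulin alone and 1 day in basal medium. All of them were then moved to RPMI-1640 with 10% FBS, penicillin and streptomycin for 72 hours. In the 3 exposed samples, titled Mature-Myeloma, human MM.1S cells, a multiple myeloma line, were present on the far side of a 0.4 µm transwell, and in the 2 controls, titled Mature-Control, the medium was used alone. No animal, genotype or transgene entered the comparison, and the adipocytes all came from the same line. The readout was 1 Clariom S expression array (Affymetrix) per sample. The labels do not say that replicates came from separate cultures, so p-values reflect sample-to-sample spread only, and that spread may be technical. Values are log2 expression values, and differences are exposed minus control on that scale.

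Oxidative phosphorylation moves electrons from NADH and succinate to oxygen through complexes I to IV. Complexes I, III and IV pump protons across the inner mitochondrial membrane, and complex V lets them back to make ATP, whereas complex II pumps none and also belongs to the citric acid cycle. Most subunits are encoded in the nucleus, and their amount builds up during adipocyte differentiation, when mitochondria multiply. In brown and beige fat cells part of the proton flow is uncoupled from ATP synthesis to make heat.

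The marker genes of the 5 complexes were all measured well inside the upper part of the level range. Over all probe sets the median mean level was 4.81. Ndufs1 of complex I had a mean of 7.97, Sdha of complex II 6.64, Uqcrc1 of complex III 8.99, Cox4i1 of complex IV 11.79 and Atp5b of complex V 11.88. Among the 85 genes, 70 lay in the top 10% of probe sets by level and 4 lay below the median, and these 4 were Cox4i2, Cox6b2, Cox7b2 and Ndufa4l2. Adipocyte markers fixed for this comparison were high, with a mean over the 7 genes from 9.96 to 10.16 on exposed arrays against 10.17 and 10.16 on control arrays, and a median difference of -0.036. The measured markers of macrophages (4) averaged 3.27 to 3.38 on exposed arrays against 3.27 and 3.51 on control arrays. For B and plasma cells (5 markers) the averages were 3.70 to 4.09 and 3.82 and 3.99. Preadipocyte and fibroblast markers (4) averaged 9.52 to 9.59 against 9.69 and 9.64. In these bulk samples fewer cells of a type and less RNA per cell cannot be told apart.

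Most subunit genes had a slightly higher mean on exposed arrays. The exceptions mixed several large catalytic subunits with accessory and small ones, and other catalytic subunits were higher. Of the 85 genes, 67 were higher and 18 lower, with a median difference of 0.0815, whereas 49.9% of all probe sets were higher and 50.1% lower, with a median near 0 (-0.0004). The differences ran from -0.50 for Ndufa4l2 to 0.43 for Cox8c. None of the 85 passed the test at an adjusted p under 0.05 (limma, smallest adjusted p 0.93), as was the case for all 22206 probe sets (0%). At an unadjusted p under 0.05 (limma) there was 1 subunit gene, Cox8c, of 85, beside 776 of 22206 probe sets. The latter were 3.49% of all probe sets (1.82% higher and 1.68% lower), and the share was 2.39% at or above the median level. The subunit count depended on how the variances were fitted: it was 8 of 85 without moderation and 8 of 85 with a trended prior. Over all probe sets those 2 fits gave 626 and 771 of 22206.

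The 95% intervals bounded the differences between these arrays for most subunits, but they rest on sample-to-sample spread that may be technical. Their median half-width was 0.32, beside a median difference of 0.0815. The 95% interval lay within 2-fold in both directions for 84 of 85 genes, the exception being Ndufa4l2, and this held for 92.9% of all probe sets and 96.1% of those at or above the median level. It lay within 1.5-fold for 71 of 85, beside 52.7% of all probe sets and 61.7% of those at or above the median level. Exposed replicates of a subunit gene had a median SD of 0.11 and control replicates 0.054, against 0.18 and 0.11 over all probe sets. The exposed SD rests on 3 arrays and the control SD on 2, so they are not directly comparable. The same value recurred on at least 2 arrays for 16 of 85 genes and 6038 of 22206 probe sets.

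**Figure D1:**
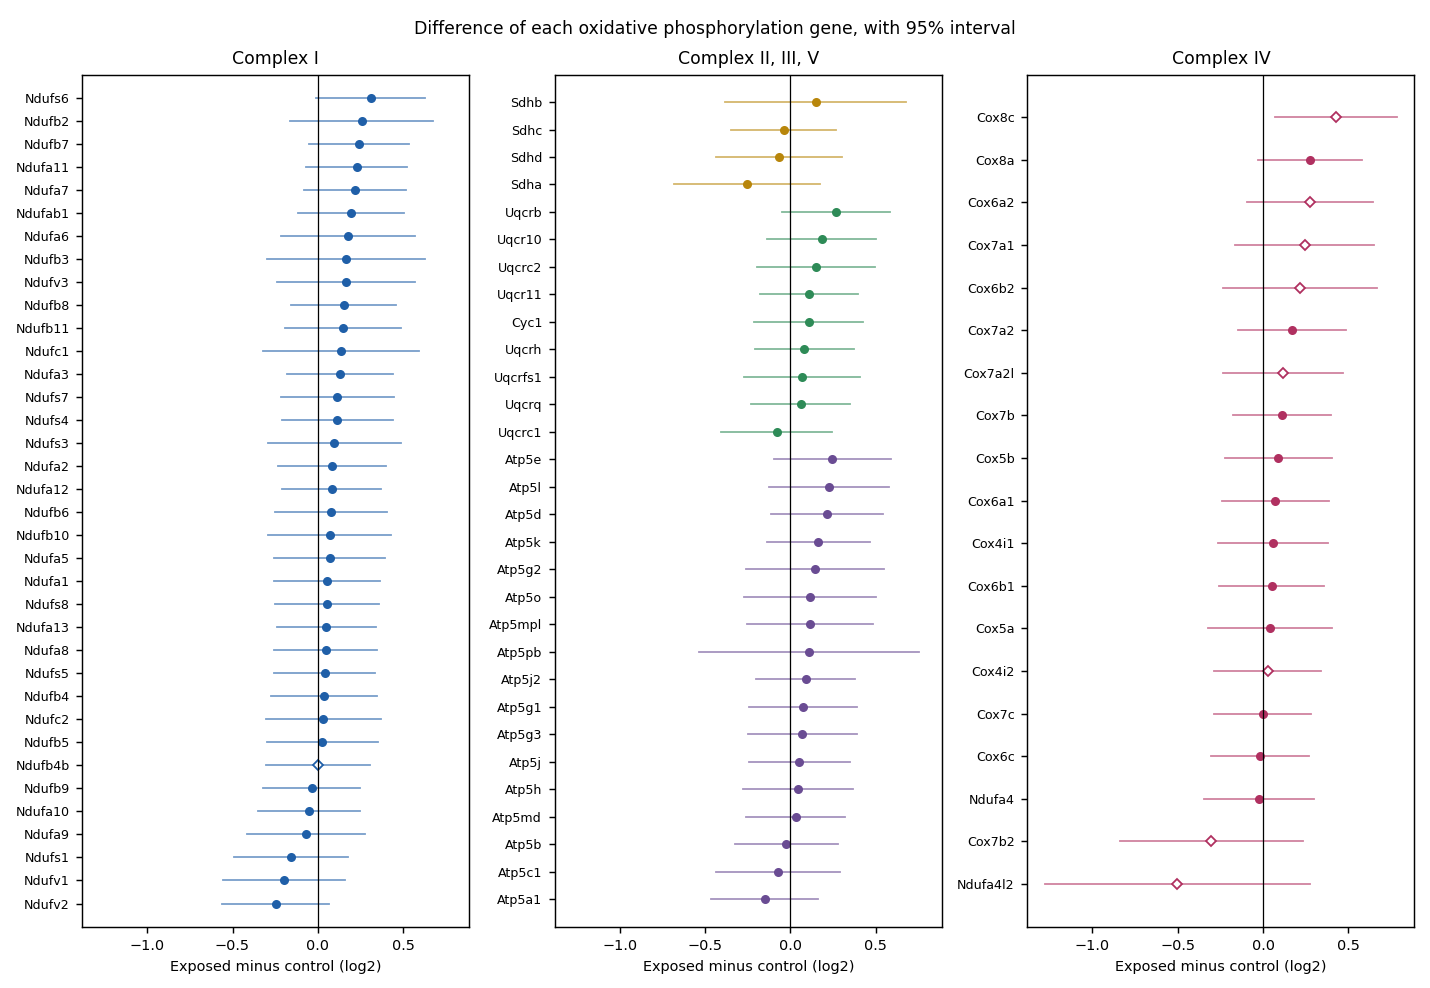
Exposed minus control difference (log2, horizontal axis) of each of the 85 genes, named on the vertical axis and sorted by size within each complex; points are limma estimates from 3 exposed and 2 control arrays, bars are 95% intervals, and open diamonds are tissue isoforms or relatives. Most points lie to the right of 0, 67 of 85. Those to the left include Ndufa4l2 and Cox7b2, the lowest, and Ndufv2, Ndufv1, Ndufs1, Sdha and Atp5a1. Accessory or small subunits such as Ndufa9 and Cox6c also lie there.

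Bars for nearly all genes cross 0 in the plot of each gene's difference. Only the interval of Cox8c (0.069 to 0.78) did not include it.

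The arrays of a group did not move together. Relative to each gene's mean over the 5 arrays, the median deviation over the 85 genes was -0.041, 0.038 and 0.083 on exposed arrays 1, 2 and 3, against -0.070 and -0.030 on control arrays 1 and 2. On this scale exposed array 1 thus lay between the control arrays, and the higher group mean came from exposed arrays 2 and 3. Exposed array 3 held the highest value for 37 of 85 genes, where it does so for 24.6% of all probe sets. Control array 1 held the lowest for 33, beside 19.5% of all probe sets. Over all probe sets the same median deviations lay within 0.008 of 0 on every array. In the other probe sets of the top 10% by level they were -0.036, 0.022 and 0.00012 on exposed arrays 1, 2 and 3. On control arrays 1 and 2 they were 0.023 and 0.0055. Exposed array 1 was thus below both controls in these bright probe sets, whereas for the subunit genes it lay between them. Groups did not overlap, with every exposed array above both controls, for 22 of 85 genes, where 8.5% of all probe sets did so. Every exposed array lay below both controls for 2 of 85, Ndufv2 and Ndufa4l2, where 8.84% of all probe sets did so. At or above the median level, the shares of probe sets were 7.03% with all exposed arrays higher and 11.4% with all lower. In either direction, groups did not overlap for 17.3% of all probe sets.

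**Figure D2:**
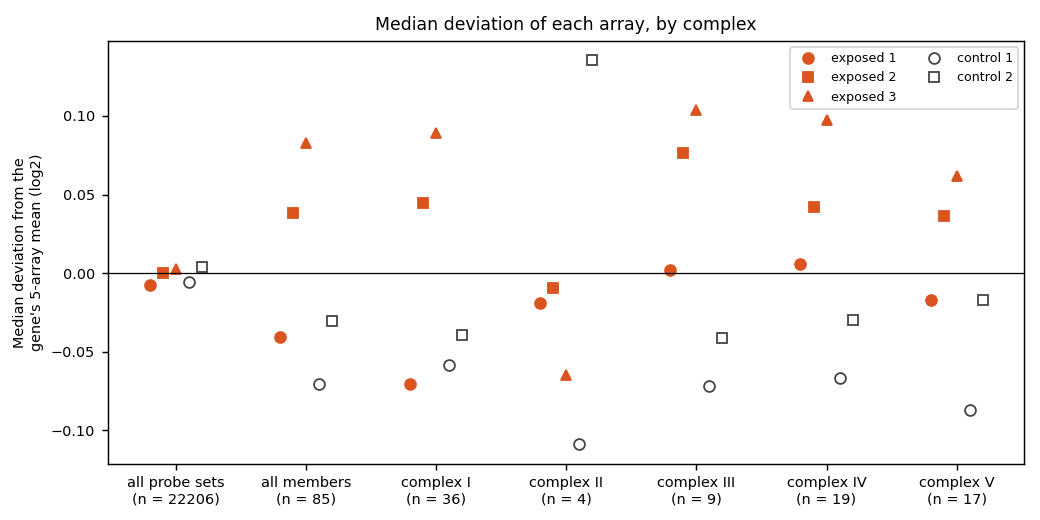
Median deviation of each array from a gene's 5-array mean (log2, vertical axis), for all probe sets, all 85 genes and each complex (horizontal axis, n is the number of probe sets); filled orange symbols are the 3 exposed arrays and open symbols the 2 controls. Exposed arrays 2 and 3 lie above both controls for complexes I, III, IV and V, exposed array 1 does so for complexes III and IV and, barely, complex V (-0.017 against -0.087 and -0.0171), and control array 2 is the highest array for complex II.

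The differences also varied with properties other than the complex, the signal level and the length of the gene in the genome. With level the directions were opposite. Bright subunit genes were higher more often than the other subunit genes, and bright probe sets less often than all probe sets (49.9%). Among the 2221 probe sets in the top 10% by level, 42.8% were higher, with a median of -0.019. The 70 subunit genes in that class were higher for 59 (84.3%), with a median of 0.0835. The other 15 were higher for 8 (53.3%), with a median of 0.027. Only 1 of the 4 complex II genes was in the top class. Genomic span was read from RefSeq's GRCm38.p6 gene table, which had a value for 85 of the 85 genes and 1961 of the 2221 probe sets in the top class. In the top class without the subunit genes, the median difference was 0.0099 for 609 genes of up to 10 kb, -0.034 for 664 genes of 10 to 30 kb and -0.067 for 618 longer genes. Subunit genes are mostly compact: 61 span up to 10 kb, with a median of 0.0849 and 85.2% higher, beside 55% of the other bright genes of that span. Another 20 span 10 to 30 kb, with a median of 0.064, falling to 0.011 without exposed array 3, and 4 are longer, with a median of -0.10 that was -0.0081 without control array 1. The part of gene length, RNA quality or hybridisation in the differences was not tested.

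**Figure D3:**
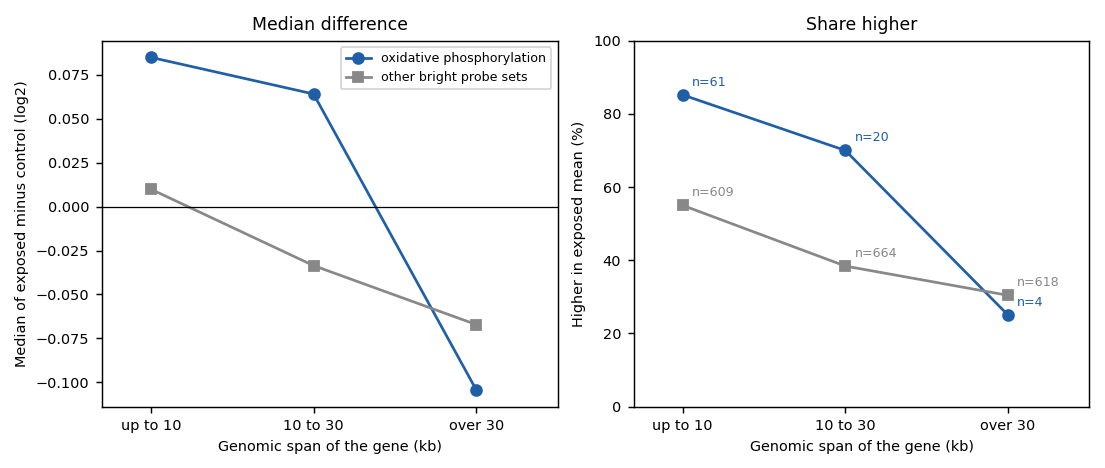
Median exposed minus control difference (log2, left) and percent of genes with a higher exposed mean (right), by genomic span in kb, for the 85 subunit genes (blue circles) and the other probe sets in the top 10% by level (grey squares, with n beside the points). The grey medians go from 0.0099 to -0.067 with span, and the blue point over 30 kb rests on 4 genes.

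Promoter sequence was not used in choosing the genes, and 3 motifs were searched for in it. A RefSeq window (GRCm38.p6) from 250 bases before to 50 after the start was found for 69 of the 85 genes. It was searched on both strands for the consensus of the nuclear respiratory factor NRF1, for CCGGAAG, the core of ETS factors such as GABP, and for AANATGGCG, the site of YY1. The NRF1 letters were in 24.6% of these 69 windows, against 5.19% of all 27025 genes with a window, 7.17% of protein-coding genes and 15.1% of other genes in the top 10% by level. For the ETS letters the shares were 24.6%, 9.93%, 12.9% and 24.5%, and for the YY1 letters 14.5%, 2.76%, 3.64% and 7.35%. At least 1 of the 3 motifs was in 38 of 69 windows (55.1%). The share was 15.9% of all genes with a window, 20.9% of protein-coding genes and 39.8% of other genes in the top 10% by level. It was in 0 of the 5 windows of tissue isoforms, relatives and near copies (Cox6b2, Cox7a1, Cox7a2l, Cox7b2 and Ndufb4b), too few to set against those shares. The motif shares were not tested, and 31 of 69 windows held none of the 3. Exposed minus control, genes with at least 1 motif had a median of 0.086 (32 of 38 higher) and those with none 0.0821 (25 of 31 higher). By motif the medians were 0.0687 with and 0.0940 without the NRF1 letters, 0.0815 and 0.0861 for ETS, and 0.11 and 0.0773 for YY1. Those differences were not tested. The counts higher were 13 of 17 and 44 of 52 for NRF1, 16 of 17 and 41 of 52 for ETS, and 8 of 10 and 49 of 59 for YY1. The letters describe the windows only, and no binding was measured.

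The 250 bases before the start are shown for 4 genes, each 5′ to 3′ on the gene's strand, with matches in capitals: Cox6a1, the widely expressed form of its subunit, at chr5:115348959-115349208 (minus strand), with NRF1 and ETS letters; Cox7a1, a muscle and brown fat isoform, at chr7:30183921-30184170 (plus strand), with none; and the genes with the largest positive difference in complex I and the largest negative one in complex II, Ndufs6 at chr13:73328483-73328732 and Sdha at chr13:74350241-74350490 (both minus strand), which hold the NRF1 letters alike.
Cox6a1: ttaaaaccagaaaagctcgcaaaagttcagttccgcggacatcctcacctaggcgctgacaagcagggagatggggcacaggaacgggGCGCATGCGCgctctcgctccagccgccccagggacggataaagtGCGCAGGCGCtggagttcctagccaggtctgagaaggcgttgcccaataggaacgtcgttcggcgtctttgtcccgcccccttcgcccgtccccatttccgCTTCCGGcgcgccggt
Cox7a1: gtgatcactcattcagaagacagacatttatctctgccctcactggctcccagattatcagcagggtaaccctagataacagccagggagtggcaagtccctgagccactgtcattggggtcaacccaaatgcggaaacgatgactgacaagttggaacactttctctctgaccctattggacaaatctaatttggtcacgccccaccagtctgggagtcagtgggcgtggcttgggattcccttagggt
Ndufs6: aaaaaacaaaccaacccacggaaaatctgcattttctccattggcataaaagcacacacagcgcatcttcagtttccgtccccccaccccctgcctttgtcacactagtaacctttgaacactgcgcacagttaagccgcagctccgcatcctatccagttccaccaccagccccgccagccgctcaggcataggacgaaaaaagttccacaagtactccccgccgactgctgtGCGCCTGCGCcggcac
Sdha: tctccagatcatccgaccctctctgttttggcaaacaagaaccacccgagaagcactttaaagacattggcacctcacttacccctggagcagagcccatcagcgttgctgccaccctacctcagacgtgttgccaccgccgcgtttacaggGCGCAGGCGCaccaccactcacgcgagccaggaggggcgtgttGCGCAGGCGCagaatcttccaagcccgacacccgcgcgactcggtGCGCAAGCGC
The Ndufs6 window also holds the YY1 letters, in the 50 bases after the start that are not shown.

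Complex I, which oxidises NADH, had 30 of 36 genes higher and 6 lower, with a median of 0.0797. That median was 0.13 without exposed array 1 and 0.0525 without exposed array 2. Its catalytic core did not follow the accessory subunits. Of the 6 measured core genes 3 were higher and 3 lower, with a median of -0.053, while 27 of 30 accessory genes were higher. The accessory A genes had a median of 0.0821 (11 of 13 higher), the B and C genes of the membrane arm 0.077 (12 of 13) and the accessory S and V genes 0.14 (4 of 4). Without control array 1 the core median was 0.0019, and without exposed array 3 the B and C median was 0.025, with 7 of 13 higher. The top 10% by level held 2 of the 6 core genes. It held 13 of 13 accessory A, 12 of 13 B and C and 4 of 4 S and V genes. The difference between core and accessory subunits was seen in the data and not tested, and the 2 groups also differ in level.

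Ndufs6, an accessory subunit that holds a zinc ion, was at 9.94, 9.73 and 9.81 on exposed arrays and 9.47 and 9.57 on control arrays. All exposed values lay above both controls, and the difference was 0.31 (95% interval -0.008 to 0.63; limma adjusted p 0.93). Ndufb7, a membrane arm subunit, was at 9.60, 9.64 and 9.54 against 9.33 and 9.38, again without overlap, a difference of 0.24 (-0.051 to 0.53). Ndufb2, of the same arm, was at 9.77, 10.03 and 10.25 against 9.77 and 9.75. Its difference of 0.26 (-0.16 to 0.67) came from exposed arrays 2 and 3, since exposed array 1 lay between the controls. Ndufa11, Ndufa7 and Ndufab1, the last of which also serves as the mitochondrial acyl carrier protein, were named after their values were seen and differed by 0.23, 0.22 and 0.20 without overlap.

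The 3 lowest genes of complex I belong to its catalytic core. Ndufv2, an iron-sulfur subunit, was at 8.03, 8.19 and 7.98 on exposed and 8.34 and 8.30 on control arrays, all exposed values lower, a difference of -0.25 (-0.56 to 0.067; limma adjusted p 0.93). Ndufv1, which binds NADH and FMN, was at 8.75, 8.84 and 8.59 against 9.05 and 8.80, and exposed array 2 lay above control array 2. Ndufs1, the largest subunit of the complex, was at 7.90, 7.97 and 7.86 against 8.20 and 7.94, so that control array 1 alone stood apart. Their differences were -0.20 (-0.56 to 0.16) and -0.16 (-0.49 to 0.18). The other core genes, Ndufs3, Ndufs7 and Ndufs8, were named after their values were seen and differed by 0.097, 0.11 and 0.053, each with overlap. Ndufb4 and its near copy Ndufb4b differed by 0.035 and 0.0019, and the array may not separate them.

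Complex II, succinate dehydrogenase, was the only complex with a negative median, -0.052, with 1 of 4 genes higher. Sdha, the flavoprotein that oxidises succinate, was at 6.65, 6.57 and 6.40 on exposed and 6.57 and 7.01 on control arrays. Control array 1 lay inside the exposed range and control array 2 above it, and the difference of -0.25 (-0.68 to 0.18; limma adjusted p 0.93) therefore rested on control array 2. Sdhb, the iron-sulfur subunit, went the other way at 8.48, 8.97 and 9.11 against 8.58 and 8.83, a difference of 0.15 (-0.38 to 0.68). The membrane anchor Sdhc was at 8.15, 8.08 and 7.97 against 8.08 and 8.13, and the anchor Sdhd at 7.91, 7.93 and 7.94 against 7.80 and 8.18. For Sdhd the exposed values lay between controls that were wide apart, and for Sdhb the difference was 0.018 without exposed array 3. The median of the complex was -0.16 without control array 1 and 0.053 without control array 2, so its sign depends on which control is kept.

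Complex III, which passes electrons from ubiquinol to cytochrome c, had 8 of 9 genes higher, with a median of 0.11. Over all 5 arrays this was the highest median of the complexes, but the ranking depended on the arrays kept. Complex I was highest without exposed array 1 (0.129 against 0.107 for complex III) and without control array 1 (0.078 against 0.0727). Complex V was highest without control array 2 (0.12 against 0.105), and complex IV, barely, without exposed array 3 (0.0745 against 0.07325). For the 5 small subunits of complex III the exposed arrays all lay above the controls. The same held for 8.5% of all probe sets and 7.03% of those at or above the median level. Uqcrb, which binds near the ubiquinone site, was at 8.63, 8.84 and 8.73 on exposed and 8.51 and 8.43 on control arrays, a difference of 0.27 (-0.047 to 0.58; limma adjusted p 0.93). Uqcr10 was at 11.44, 11.58 and 11.67 against 11.41 and 11.35, a difference of 0.18 (-0.14 to 0.50). In both genes the lowest exposed value lay just above the higher control, by less than the range of the exposed arrays. Uqcr11, Uqcrh and Uqcrq, named after their values were seen, differed by 0.11, 0.082 and 0.059. The lowest exposed value was 12.41 against a higher control of 12.39 for Uqcrh, and 11.55 against 11.53 for Uqcrq.

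The larger proteins of complex III overlapped between the groups. Uqcrc1, a core protein, was at 9.05, 9.004 and 8.815 on exposed and 9.07 and 9.01 on control arrays, a difference of -0.081 (-0.41 to 0.24), with exposed array 3 lowest. The other core protein gene, Uqcrc2, was at 8.39, 8.33 and 8.60 against 8.36 and 8.23, a difference of 0.15 (-0.20 to 0.49) in which exposed array 3 was highest. The catalytic subunits Cyc1, cytochrome c1, and Uqcrfs1, the Rieske iron-sulfur protein, named after their values were seen, differed by 0.11 and 0.069.

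Complex IV, cytochrome c oxidase, had 14 of 19 genes higher, with a median of 0.072. Its 11 widely expressed subunits had a median of 0.060 and 8 higher, and the median was 0.0999 without exposed array 1, 0.026 without exposed array 2 and 0.039 without exposed array 3. Cox4i1, which regulates the enzyme's activity, was at 11.86, 11.90 and 11.70 on exposed and 11.69 and 11.83 on control arrays, a difference of 0.060 (-0.26 to 0.38) with overlap. Cox8a, the widely expressed form of subunit VIII, was at 12.16, 12.20 and 12.30 against 11.885 and 12.002, without overlap. Its difference of 0.28 (-0.03 to 0.58; limma adjusted p 0.93) was the largest of the widely expressed genes. Cox7c and Cox6c, named after their values were seen, differed by -0.0019 and -0.018, and Cox7c read from 12.60 to 12.62 over all 5 arrays. Ndufa4 was at 11.05, 11.21 and 11.29 against 11.20 and 11.22.

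Several subunits of complex IV come in forms that differ between tissues, and the 8 isoforms and relatives ran from -0.50 to 0.43. Their median was 0.17, with 6 of 8 higher, and 4 of them were below the median level of the table. The heart and muscle isoform genes Cox6a2 and Cox7a1 were both clearly measured. Cox6a2 was at 8.42, 8.57 and 8.80 on exposed and 8.33 and 8.31 on control arrays, without overlap, a difference of 0.28 (-0.094 to 0.64; limma adjusted p 0.93). Cox7a1, which brown fat also uses, was at 9.18, 9.43 and 9.52 against 8.98 and 9.28, with exposed array 1 below control array 2, a difference of 0.24 (-0.16 to 0.65). Of their widely expressed counterparts, Cox6a1 was at 12.05, 12.07 and 12.24 against 12.03 and 12.07, and Cox7a2 at 10.53, 10.43 and 10.42 against 10.38 and 10.19. Cox7a2 did not overlap between the groups (difference 0.17), whereas Cox7a1 did. Without control array 1, Cox7a2 differed by 0.27 and Cox7a1 by 0.095, and without exposed array 3 by 0.19 and 0.17, so which of them differed more depends on the arrays kept. Muscle markers, 6 of 6 measured and all below the median level of the table, averaged 3.59 to 3.81 on exposed and 3.59 and 3.52 on control arrays. For brown and beige fat, the markers Ucp1, Cidea, Dio2, Cox8b and Elovl3 averaged 3.94 to 3.98 against 3.88 and 3.70, and 4 of 5 lay below that median. Cox8b, which the choice of genes left out, was at 6.87, 7.48 and 7.56 against 6.86 and 6.79, while Ucp1, the uncoupling protein of thermogenic fat, was at 2.49 to 2.71 against 2.499 and 2.404. The part of these markers in the isoform values was not tested.

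Most remaining isoform genes were dim. Cox8c, a testis form, was at 5.17, 4.99 and 5.22 on exposed and 4.58 and 4.82 on control arrays, all exposed values higher, a difference of 0.43 (0.069 to 0.78; limma unadjusted p 0.026, adjusted p 0.93). Testis markers averaged 3.34 to 3.50 on exposed and 3.32 and 3.21 on control arrays, and all 5 lay below the median level of the table. Cox6b2 and Cox7b2, also testis forms, went in opposite directions by 0.22 (-0.24 to 0.67) and -0.30 (-0.84 to 0.23). Cox6b2 was at 4.38, 4.11 and 4.67 against 4.17 and 4.17, and Cox7b2 at 2.60, 2.22 and 2.90 against 2.76 and 2.99. Cox4i2, the form of hypoxic lung, was at 4.85, 4.64 and 4.77 against 4.75 and 4.70 and differed by 0.027 (-0.29 to 0.34). Ndufa4l2, a gene induced by hypoxia, was at 3.55, 4.52 and 4.52 against 4.57 and 4.82. Exposed array 1 was more than 0.9 below the other exposed arrays there, and the difference of -0.50 had the widest interval of the 85 genes, -1.28 to 0.27. Cox7a2l, which helps join complexes III and IV, was at 9.18, 9.14 and 8.90 against 9.01 and 8.90, a difference of 0.12 (-0.23 to 0.47).

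**Figure D4:**
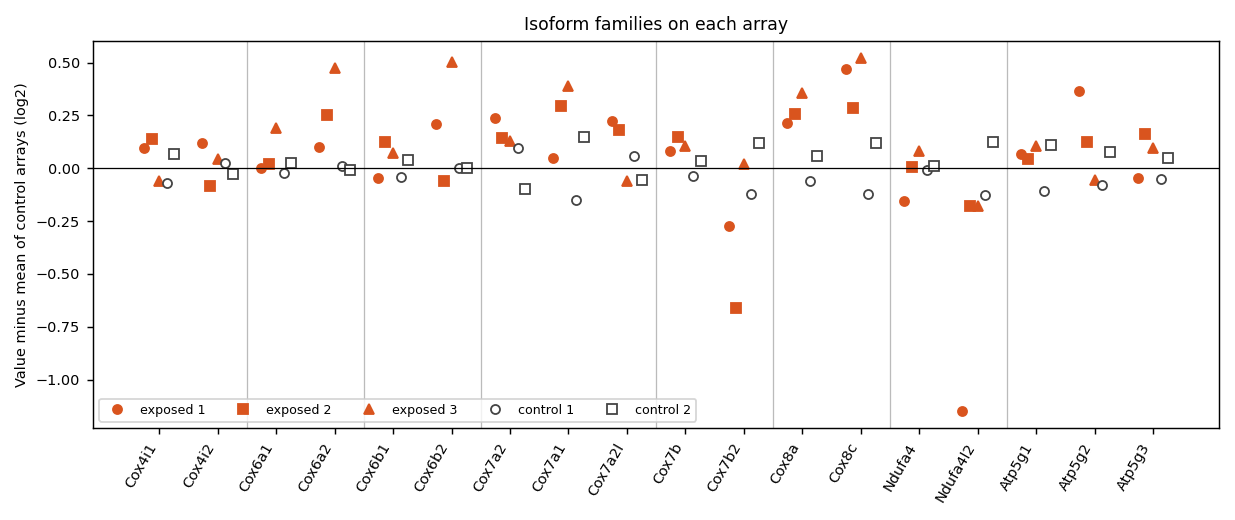
Value of each isoform gene on each array minus the mean of the 2 control arrays (log2, vertical axis), with families separated by grey lines; filled orange symbols are exposed arrays 1, 2 and 3 and open symbols control arrays 1 and 2. Cox6a2, Cox8a and Cox8c have all exposed arrays above both controls, as do Cox7a2 and Cox7b, and Ndufa4l2 has exposed array 1 far below the rest.

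Within-array differences between an isoform and its counterpart showed whether the balance of a family shifted. For Cox6a2 minus Cox6a1 the value was -3.63, -3.50 and -3.45 on exposed and -3.70 and -3.76 on control arrays, a change of 0.20 with no overlap. The balances Cox7b2 minus Cox7b and Ndufa4l2 minus Ndufa4 did not overlap either, with all exposed values lower. For Cox7b2 minus Cox7b, exposed array 3 (-8.417) and control array 1 (-8.416) nearly tied, and Cox7b2 is dim. Among single probe sets, groups did not overlap in either direction for 17.3%. For Cox7b2 minus Cox7b the change was -0.41, for Ndufa4l2 minus Ndufa4 -0.48, for Cox6b2 minus Cox6b1 0.17 and for Cox8c minus Cox8a 0.15. The balances Cox7a1 minus Cox7a2, Cox7a2l minus Cox7a2 and Cox4i2 minus Cox4i1 changed by 0.073, -0.056 and -0.032. Exact two-sided permutation tests over the 10 splits of the arrays gave p from 0.2 to 1 over the 10 pairs compared, with adjusted p from 0.75 to 1, and the smallest p this design allows is 0.1. No change in isoform balance could therefore pass, and the smallest p, 0.2 by the exact test, was that of the Cox6a2 and Cox7b2 balances.

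Complex V, the ATP synthase, had 14 of 17 genes higher, with a median of 0.0905. The 3 lower genes encode the alpha and beta subunits of the catalytic head and the gamma subunit of the rotor stalk. Atp5a1, the alpha subunit, was at 11.15, 11.32 and 11.13 on exposed and 11.31 and 11.40 on control arrays, a difference of -0.15 (-0.47 to 0.16; limma adjusted p 0.93). Atp5b, the catalytic beta subunit, was at 11.93, 11.89 and 11.78 against 11.89 on both controls, and Atp5c1, the gamma subunit of the rotor, at 10.49, 10.25 and 10.16 against 10.32 and 10.42. For Atp5b and Atp5c1 the highest value was that of exposed array 1 and the lowest that of exposed array 3, so the spread among exposed arrays was larger than the difference between groups (-0.024 and -0.071).

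The small subunits of the rotor stalk, unlike gamma, were higher. Atp5d, the delta subunit, was at 10.22, 10.29 and 10.22 on exposed and 9.90 and 10.15 on control arrays, a difference of 0.21 (-0.11 to 0.54). Atp5e, the epsilon subunit, was at 10.80, 10.83 and 11.05 against 10.57 and 10.72, a difference of 0.25 (-0.098 to 0.59; limma adjusted p 0.93). Neither gene overlapped between the groups. Atp5l, subunit g of the membrane part, was at 10.54, 10.23 and 10.38 against 10.10 and 10.21, also without overlap, a difference of 0.23 (-0.12 to 0.58). All 5 membrane and dimer genes and all 4 peripheral stalk genes were higher in mean, with medians of 0.11 and 0.081. The stalk median was -0.0025 without exposed array 3, and that of the 5 head and rotor stalk genes, -0.024 with 2 of 5 higher, was then 0.022. The median of the whole complex was then 0.0348. Atp5pb, subunit b of the stalk and named after its values were seen, was the most variable gene of the complex, at 7.97, 8.34 and 8.88 against 8.24 and 8.34.

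The ring of c subunits, through which protons pass, is encoded by 3 genes that differ in their targeting peptides and give the same mature protein. Atp5g1 was at 9.92, 9.90 and 9.96 on exposed and 9.75 and 9.96 on control arrays, Atp5g2 at 11.65, 11.41 and 11.23 against 11.21 and 11.37, and Atp5g3 at 11.18, 11.39 and 11.32 against 11.18 and 11.28. Their differences were 0.072, 0.14 and 0.070, all with overlap, and the median of the 3 was 0.019 without control array 1 and 0.18 without control array 2. On exposed arrays Atp5g2 was highest on array 1 and Atp5g3 lowest there. The balances Atp5g2 minus Atp5g1 and Atp5g3 minus Atp5g1 changed by 0.072 and -0.0020 (exact permutation p 0.7 and 1).

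Other mitochondrial genes were compared through lists that held no subunit. None of their members passed the test (limma, smallest adjusted p 0.93). The 76 mitochondrial ribosomal proteins, which translate the subunits encoded in mitochondrial DNA, were higher for 61, with a median of 0.0926, and all exposed arrays lay above the controls for 11, beside 8.5% of all probe sets and 7.03% of those at or above the median level. Without control array 1 that median was 0.047 and without exposed array 3 it was 0.053. Their median deviations were -0.071, 0.047 and 0.12 on exposed arrays 1, 2 and 3 and -0.078 and -0.017 on control arrays, so exposed array 3 was highest, as for the subunits. The 60 cytosolic ribosomal proteins were higher for 38, with a median of 0.021. Citric acid cycle genes were higher for 5 of 12 (median -0.028), with Idh3a at -0.23 and Ogdh at -0.17. Inner membrane carriers and uncouplers were higher for 3 of 8 (median -0.044), with Ucp3 at -0.17 and the outer membrane channel gene Vdac3 at -0.12. Electron carriers and coenzyme Q synthesis genes were higher for 8 of 14 (median 0.021), among them Coq9 at 0.31 and Coq4 at -0.20. Without exposed array 3, Coq9 was 0.072 and Coq4 -0.041. Leaving out control array 1, exposed array 2 or exposed array 3 turned the sign of the carrier and coenzyme Q median (-0.013, -0.025 and -0.016), and leaving out exposed array 3 turned that of the inner membrane list (0.017).

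Assembly factors, which build the complexes without staying in them, were mixed. Those of complex I were higher for 9 of 16 (median 0.059), with Ndufaf6 at 0.36 and Ndufaf3 at 0.30. The median was 0.015 without exposed array 3, 0.021 without control array 2 (8 of 16 higher) and 0.036 without control array 1. Those of complex IV were higher for 13 of 19 (median 0.074, or 0.14 without exposed array 1). Lrpprc, which stabilises the mitochondrial messenger RNAs, was at 6.92, 7.05 and 6.51 on exposed and 7.36 and 7.12 on control arrays, all exposed values lower, a difference of -0.41 (-0.895 to 0.069). Coa6, a copper-handling factor of complex IV, differed by 0.29. Complex II factors were higher for 3 of 4 (median 0.34, or 0.18 without control array 2). Sdhaf4 was at 5.41, 5.92 and 6.37 against 5.44 and 5.26, and Sdhaf1 at 6.24, 5.88 and 5.77 against 5.87 and 5.06, so each overlapped, with differences of 0.55 (-0.13 to 1.23) and 0.50 (-0.16 to 1.16). Sdhaf1 was 0.0996 without control array 2 and 0.91 without control array 1, and Sdhaf4 was 0.32 without exposed array 3. Complex III factors were higher for 4 of 6 (median 0.091), with Uqcc2 at 0.31 and Uqcc3 at 0.24, and complex V factors for 2 of 4 (median -0.043), with Tmem70 at 0.24 and Atpaf2 at -0.24. Without exposed array 3, Tmem70 was 0.0099 and Atpaf2 -0.072, and without exposed array 2 Atpaf2 was -0.53.

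Regulators of mitochondrial biogenesis were higher for 6 of 15, with a median of -0.026. Without exposed array 1 they were higher for 10 of 15 (median 0.076), so the direction of this list rests on that array. Tfam, which packages and transcribes mitochondrial DNA, was at 6.61, 6.61 and 6.42 on exposed and 6.97 and 6.61 on control arrays, a difference of -0.25 (-0.63 to 0.14) that came from control array 1. Polg, the mitochondrial DNA polymerase, differed by -0.26, and by -0.049 without exposed array 3. Genes named after their values were seen were close to 0: the coactivator gene Ppargc1a differed by -0.026, Ppargc1b by 0.033 and Nrf1 by -0.0074.

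**Figure D5:**
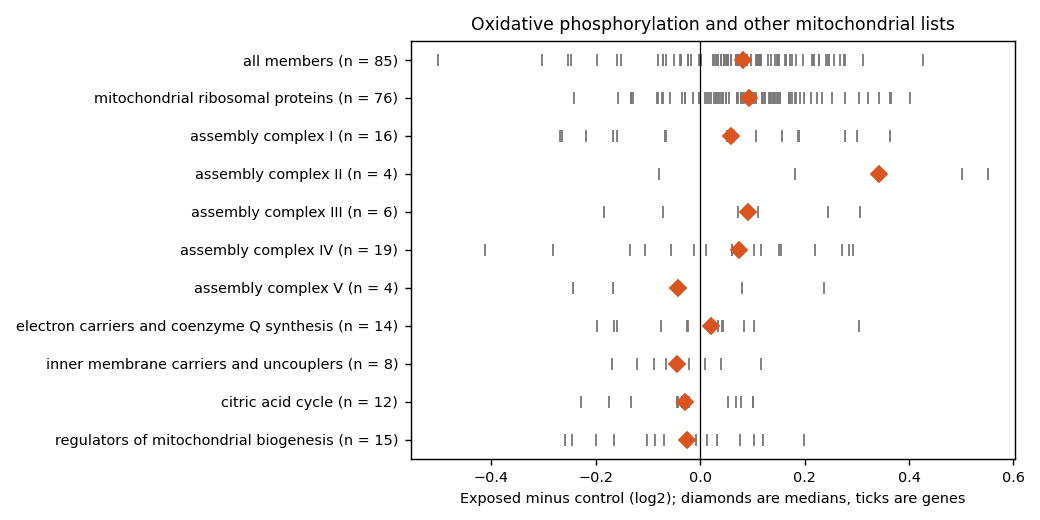
Exposed minus control difference (log2, horizontal axis) of every gene (grey ticks) and the median (orange diamonds) for the 85 subunit genes and the other mitochondrial lists (vertical axis, with n). The medians of the subunits (0.0815) and of the mitochondrial ribosomal proteins (0.0926) lie to the right of 0 and that of the regulators (-0.026) to the left, and complex II assembly, farthest right at 0.34, holds 4 genes.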

How the data were processed

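Total RNA of 5 samples of 3T3-L1 adipocytes (3 exposed, 2 control) was hybridised to Affymetrix Clariom S mouse arrays, with 50 ng of RNA per array. The deposited log2 values were made by the authors with RMA and Partek, tools that the submitters' processing notes name. No version is given in the sources used here. RMA quantile-normalizes the arrays, which fixes their overall distributions, and compresses differences between dim signals. The table held 22206 probe sets from 1.20 to 13.2, with no detection calls, and array medians from 4.80 to 4.88. With so few arrays, precision is low.

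Genes were named from the platform annotation (19572 probe sets with 1 symbol, 0 with several, 2634 with none). A linear model with a term for group alone was fitted to every probe set, unfiltered, by limma 3.58.1 (lmFit, eBayes; R 4.3.3). Its two-sided p-values were adjusted by Benjamini-Hochberg, and a call needed an adjusted p under 0.05. The arrays left 3 residual degrees of freedom, to which the prior added 3.17. Isoform balances were compared by exact permutation.

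The members and lists were chosen with earlier results of these data known. The lists held 144 genes, of which 133 were measured and 11 are not analysed here. Genes named by rule were the 5 complex markers, all of complex II, the isoform families, the 3 largest differences in each direction of the other complexes, the 3 smallest p and the 2 largest differences of each other mitochondrial list. Alternatives were no moderation, a trended prior, array weights, re-centring, a level filter, each array left out, a replicate block, other members, a mean in place of a median and an unadjusted threshold.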

Additional observations from a re-analysis of the deposited data

How the results depend on the processing

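Precision is limited by 3 exposed and 2 control arrays, without detection calls for dim probe sets. Calls stayed at 0, for all probe sets and for the 85 genes, under every alternative except an unadjusted p under 0.05. That threshold gave 776 and 1 in the main fit, 626 and 8 without moderation, and 771 and 8 with a trended prior. The median over all 85 genes, whose alternatives were chosen after the data were seen, stayed positive: 0.0558 to 0.109 with 1 array left out, 0.0636 re-centred, with 58 to 68 genes higher. It was lowest without exposed array 3. When 1 control is left out, the remaining one is taken to have the exposed arrays' spread. With 1 array left out, complex II ran from -0.16 to 0.053 and complex V from 0.0348 to 0.12. Moving Ndufa4 and Ndufa4l2 to complex I changed neither median by more than the spread between arrays. Replicate numbers are not stated to mark shared cultures, and deviations of same-numbered arrays correlated at -0.014 and -0.032. A replicate block leaves exposed array 3 alone and so gives its left-out values: 0.0348 for complex V, 0.022 for Atp5b, 0.012 for Sdhc and 0.067 for Ucp3. Of 56 named genes 47 kept their sign under every alternative. Of the others, Cox4i2 was -0.0032 with array weights, and with 1 array left out the ranges were Atp5b -0.057 to 0.022, Atp5g1 -0.037 to 0.18, Cox4i1 -0.009 to 0.13, Cox4i2 -0.020 to 0.083, Ndufa4 -0.076 to 0.044, Ogdh -0.36 to 0.0061, Sdhc -0.080 to 0.012, Sdhd -0.25 to 0.12, Ucp3 -0.38 to 0.067. The cause of these changes was not tested.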
